A study of Mus musculus with 20 samples.

Results

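Platelets are shed by megakaryocytes of the bone marrow, and 10 genes known from both were read in sorted blood stem and progenitor cells: Pf4, Vwf, Itga2b, Itgb3, Gp5, Gp9, Tubb1, Clu, Cavin2 and Selp. They were chosen by name, with earlier results of these data known, and are 10 of the 55573 gene identifiers in the count tables. All 10 passed the filter on low counts. The cells came from the bone marrow of C57BL/6 mice aged 7 to 9 weeks, with no genotype beyond the strain in the labels. Both sorted populations lacked lineage antigens and carried Sca-1 and c-Kit (LSK). Those called HSC (hematopoietic stem cells) were CD150+CD48-, and those called MPP (multipotent progenitors) were CD150-CD48-. Each was split by antibody staining for Lepr, the leptin receptor, into Lepr+ and Lepr- cells. Each of the 4 resulting groups had 5 libraries. A replicate was a pool of marrow from 2 mice, and a sample held 1000 to 8000 cells, so each library is an average over a pool. The 4 groups share the pools, so libraries of the same replicate number are paired. The p-values of the fit on group alone use the spread between libraries of a group and ignore this pairing. Those with the replicate number as a block use the spread left after differences between pools are taken out. The labels name no treatment, and the comparisons ask how the genes differ by cell type and by Lepr staining.

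The libraries held 9532993 to 31589794 counts in genes, and the 10 genes together took 0.0794% to 0.465% of these in HSC and 0.0190% to 0.0355% in MPP. Slamf1, the gene of CD150, followed the gate, with means of 46.6 and 41.4 counts per 1000000 after scaling by TMM factors (CPM) in Lepr- and Lepr+ HSC and of 5.12 and 5.03 CPM in Lepr- and Lepr+ MPP. Lepr itself was uneven in the Lepr+ libraries, with 0.0759 to 9.36 CPM in HSC and 0.261 to 38.8 CPM in MPP, against at most 0.165 and 0.767 CPM in the Lepr- libraries. Lepr+ MPP replicates 4 and 5 and Lepr+ HSC replicate 5 were the libraries least like the others of their groups (mean r of 0.815 to 0.858 across genes). Because these were bulk samples, fewer cells that express a gene and less of its RNA per cell cannot be told apart.

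Megakaryocytes arise from stem cells under the cytokine thrombopoietin and fill their granules with proteins that platelets release at a wound. Von Willebrand factor (Vwf) tethers platelets to the vessel wall through a receptor complex to which Gp5 and Gp9 belong, and the integrin made of Itga2b (CD41) and Itgb3 (CD61) then binds fibrinogen. Pf4 is a chemokine of platelet alpha granules, Selp the adhesion molecule P-selectin of the same granules, Clu a secreted chaperone that platelets also store, Tubb1 the beta tubulin of the platelet's marginal band, and Cavin2 a coat protein of caveolae that is abundant in platelets. Some of these genes are known to be transcribed already in a platelet-biased subset of stem cells, for which Vwf and Itga2b serve as markers. Transcription factors of the GATA, ETS, RUNX and NF-E2 families are known to act on such genes.

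Promoter windows from RefSeq on GRCm38.p6, 250 bases before the start site and 50 from it on, were at hand for 7 of the 10 genes: Pf4, Itga2b, Gp5, Gp9, Tubb1, Cavin2 and Selp. Of these, 5 are shown from 180 bases before the start to 30 from it on. They set 3 genes called higher in Lepr- HSC than in Lepr- MPP (Pf4, Gp5, Gp9) beside 2 not called there (Tubb1, Selp). Tubb1 was still higher in HSC, and was called between the Lepr+ groups. Capitals mark matches to the 6-letter and 7-letter words searched on both strands: for GATA factors the word AGATAA, the word AGATAG, the word TGATAA and the word TGATAG, for ETS factors the word CCGGAA and the word AGGAAG, for RUNX factors TGTGGT, and for NF-E2 and AP-1 TGAGTCA. On the opposite strand a word reads as its reverse complement. The windows lie at chr5:90772255-90772464 (Pf4, plus strand), chr16:30310752-30310961 (Gp5, minus strand), chr6:87777890-87778099 (Gp9, plus strand), chr2:174450415-174450624 (Tubb1, plus strand) and chr1:164115084-164115293 (Selp, plus strand).
Pf4: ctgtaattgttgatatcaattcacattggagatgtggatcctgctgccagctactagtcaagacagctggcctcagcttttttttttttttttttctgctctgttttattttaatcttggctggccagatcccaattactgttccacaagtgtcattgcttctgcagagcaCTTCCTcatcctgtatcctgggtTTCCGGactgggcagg
Gp5: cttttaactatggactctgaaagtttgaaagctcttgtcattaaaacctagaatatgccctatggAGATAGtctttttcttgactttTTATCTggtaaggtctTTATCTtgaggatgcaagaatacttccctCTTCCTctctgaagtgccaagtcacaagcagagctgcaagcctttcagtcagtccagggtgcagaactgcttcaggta
Gp9: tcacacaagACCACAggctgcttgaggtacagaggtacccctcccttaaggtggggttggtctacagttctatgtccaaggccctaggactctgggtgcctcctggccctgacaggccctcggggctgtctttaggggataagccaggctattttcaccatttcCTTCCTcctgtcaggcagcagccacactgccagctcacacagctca
Tubb1: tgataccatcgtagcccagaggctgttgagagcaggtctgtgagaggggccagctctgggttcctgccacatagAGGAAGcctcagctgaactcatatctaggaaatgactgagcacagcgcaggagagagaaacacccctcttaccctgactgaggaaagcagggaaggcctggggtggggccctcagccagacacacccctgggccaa
Selp: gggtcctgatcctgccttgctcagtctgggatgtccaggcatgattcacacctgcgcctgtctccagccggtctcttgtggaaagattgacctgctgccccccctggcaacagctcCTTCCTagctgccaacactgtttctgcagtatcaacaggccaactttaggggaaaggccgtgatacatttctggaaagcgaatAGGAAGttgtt

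An ETS word stood in all 7 windows, where 45.2% of the 32851 windows of this length in the table hold one. Gp5 carried 3 GATA words, the nearest 77 bases before the start, and Pf4 had 1, which begins 36 bases after the start and so lies past the stretch shown. GATA words were in these 2 of the 7 windows and in 29.8% of all. Gp9 was the 1 gene of the 7 with a RUNX word, 171 bases before its start (16.8% of all windows), and none held the NF-E2 word (5.2% of all windows). No 2 matches overlapped in these windows. Selp, which was called in no comparison, carried 2 ETS words, as many as Pf4 and Itga2b. Distances are from the RefSeq start, which is not always that of the GENCODE gene. For Tubb1 it is at 174450595 and the stretch shown ends at 174450624, both before the GENCODE start at 174450695. For Itga2b it lies 239 bases inside the GENCODE gene. A match describes letters in the window and does not show a bound factor.

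In Lepr- HSC, 8 of the 10 genes were higher than in Lepr- MPP, by 2.18 to 5.91 on the log2 scale, and the steepest differences were those of Pf4, Cavin2, Clu and Vwf. Tubb1 and Selp did not pass. The median of the 10 was 2.92 against 0.01 over all genes tested. By edgeR's quasi-likelihood test with Benjamini-Hochberg adjustment at 0.05, 2.73% of 16509 genes were called in this comparison, in either direction. The values of 9 of the 10 genes did not overlap between these 2 groups (6.23% of all genes), Selp being the exception. With the replicate number as a block, which compares cells of the same pool, the same 8 genes were called (7.5% of all genes), and Tubb1 and Selp again did not pass.

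Between the Lepr+ groups 4 of the 10 genes were called, each higher in HSC: Pf4, Vwf, Gp5 and Tubb1 (0.466% of all genes called). With the block 7 were called, Itga2b, Gp9 and Cavin2 in addition (1.77% of all genes). The values of 5 genes did not overlap between Lepr+ HSC and Lepr+ MPP (2.13% of all genes): Pf4, Vwf, Tubb1, Clu and Cavin2. Of the 10 fitted differences 9 were positive, with a median of 2.23 against -0.02 over all genes. Of 30 fits that left out 1 library or, with the block or without it, 1 replicate number, Vwf was called in 30, Pf4 in 28, Gp5 in 19 and Tubb1 in 16. The calls fell to Pf4 and Vwf alone without Lepr+ HSC replicate 4 or 5 or Lepr+ MPP replicate 1 or 2, and rose to 7 without Lepr+ HSC replicate 1. In the fit without the block they fell to Vwf alone on leaving out replicate number 2 or 3 from all groups. Stromal and endothelial markers of Lepr+ MPP, the group that these values are set against, are given below, and their part was not tested.

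**Figure D1:**
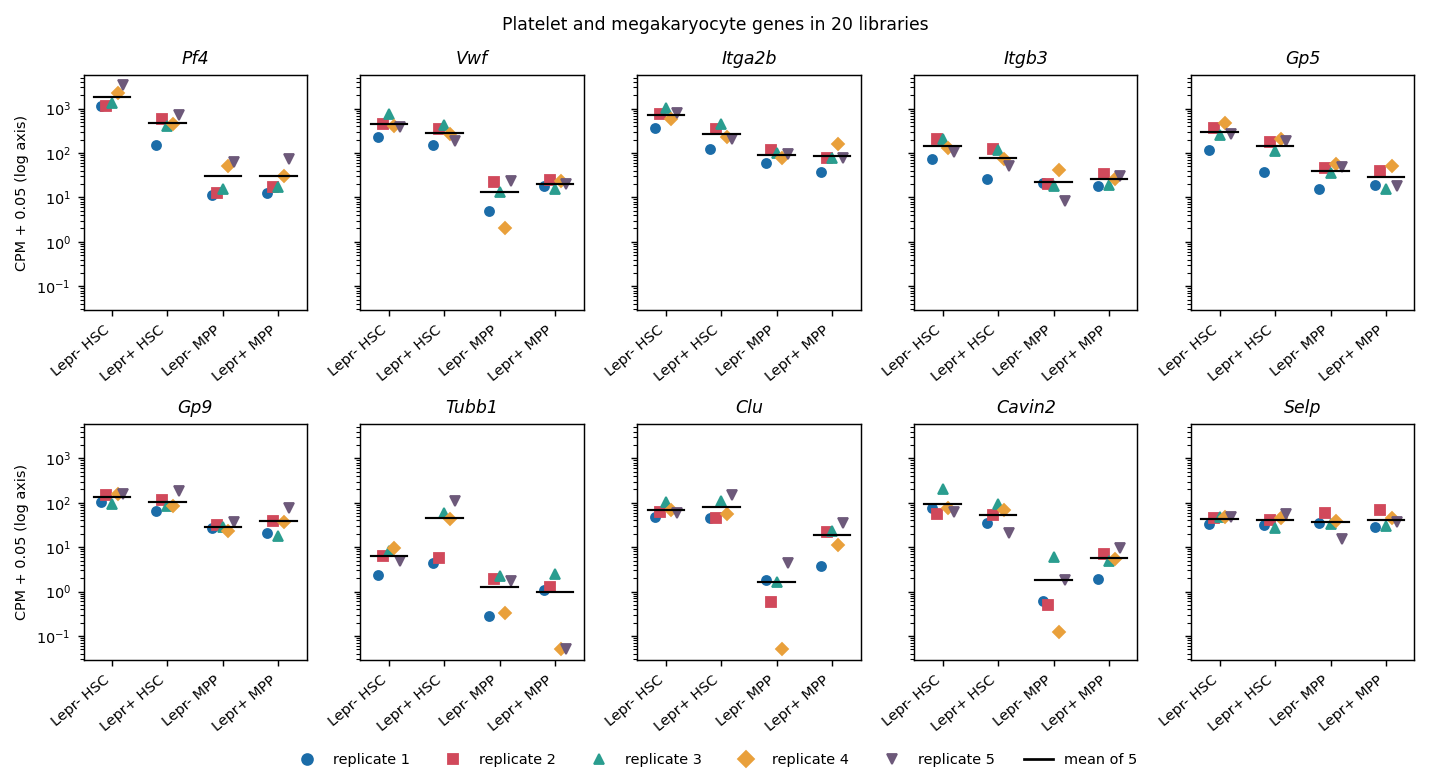
CPM of the 10 genes in each of the 20 libraries, 1 panel per gene, on a log axis after adding 0.05, so that points at the foot of the Tubb1 and Clu panels are 0. Symbols are replicate numbers and lines are means of 5. Pf4 steps down from 1145 to 3368 CPM in Lepr- HSC to 155 to 731 CPM in Lepr+ HSC, Tubb1 is spread widely in Lepr+ HSC, and Selp overlaps between all groups.

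**Figure D2:**
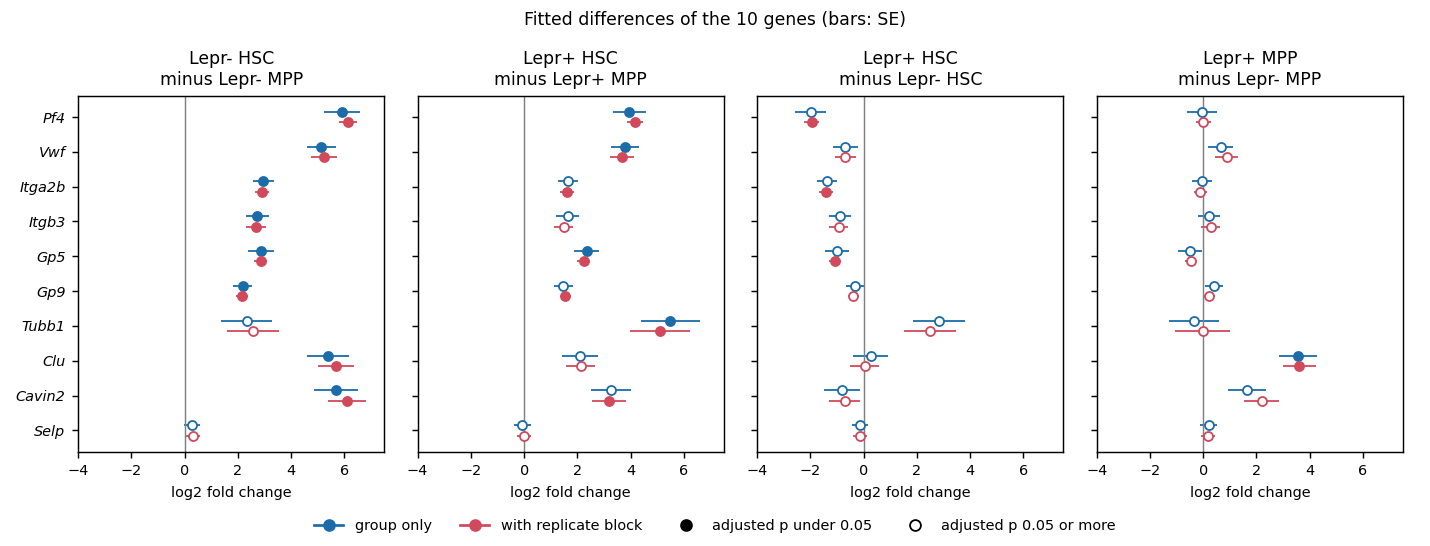
Fitted log2 fold changes with their SE for the 10 genes in 4 comparisons, from the fit on group alone (blue) and with the replicate number as a block (red). Filled points have an adjusted p under 0.05: 8 genes in Lepr- HSC against Lepr- MPP, 4 (7 with the block) in Lepr+ HSC against Lepr+ MPP, 0 (3 with the block) in Lepr+ against Lepr- HSC, and Clu alone in Lepr+ against Lepr- MPP.

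Among the granule genes, Pf4 (ENSMUSG00000029373.7, chromosome 5 from 90772435 to 90773383, plus strand, GRCm38) had the highest level of the 10 per kilobase of exon in HSC. Replicates 1 to 5 of Lepr- HSC had 1160, 1145, 1316, 2298 and 3368 CPM. The same replicates of Lepr+ HSC had 155, 583, 411, 457 and 731 CPM, so every Lepr+ library stood below every Lepr- library. This made Pf4 the 1 gene of the 10 whose values did not overlap by Lepr staining in HSC (1.62% of all genes). Lepr- MPP had 11.3, 12.6, 15.3, 51.5 and 64.3 CPM, while Lepr+ MPP had 12.7, 16.9, 17.4, 30.9 and 73.5 CPM, and these groups overlapped. In both MPP groups replicates 4 and 5 were the highest, as they were in Lepr- HSC. The difference between Lepr- HSC and Lepr- MPP was 5.91 ± 0.69 (log2, SE; adjusted p = 6.92e-05), and that between Lepr+ HSC and Lepr+ MPP 3.96 ± 0.63 (adjusted p = 0.00651).

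Vwf (chromosome 6 from 125546774 to 125686679, plus strand) had 232, 463, 773, 408 and 396 CPM in Lepr- HSC replicates 1 to 5. In Lepr+ HSC it had 155, 353, 431, 271 and 191 CPM, lower in 5 of 5 pairs but with ranges that overlapped. Lepr- MPP had 4.88, 21.7, 13, 1.95 and 23 CPM, a spread of 11.8-fold, and Lepr+ MPP had 17.6, 24.3, 15.8, 23.7 and 20.02 CPM, a spread of 1.54-fold. Both HSC groups thus stood above both MPP groups in every library. The difference between HSC and MPP was 5.14 ± 0.55 among Lepr- cells (adjusted p = 2.66e-05) and 3.79 ± 0.52 among Lepr+ cells (adjusted p = 0.00186). Vwf was the 1 gene of the 10 still called between Lepr+ HSC and Lepr+ MPP when only those 2 groups were fitted (0.0272% of all genes called).

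Selp (chromosome 1 from 164115264 to 164150026, plus strand) was called in no comparison, and its values overlapped between all 4 groups. It had 32.5, 44.8, 46.9, 47.5 and 48 CPM in Lepr- HSC, and 31.7, 41.6, 27.4, 44.8 and 54.7 CPM in the Lepr+ libraries. In Lepr- MPP it had 34.4, 59.8, 33.5, 39 and 15.4 CPM, and 28.4, 69.5, 29.3, 44.5 and 37.7 CPM in the Lepr+ libraries. The means of the groups ran from 36.4 to 44 CPM. Its difference between Lepr- HSC and Lepr- MPP was 0.27 ± 0.31 (adjusted p = 0.859), and between the Lepr+ groups -0.07 ± 0.31 (adjusted p = 0.997). Exons of Selp overlap those of Gm16587 and Gm16548 on the other strand by 186 and 438 bases. The libraries kept no strand, so reads of these 3 genes cannot be told apart there, but Gm16587 and Gm16548 held 57 counts each over all 20 libraries.

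Clu (chromosome 14 from 65968483 to 65981547, plus strand) had 48.5, 61.3, 103, 68.5 and 60.2 CPM in Lepr- HSC. It had 45, 46.2, 109, 56.8 and 151 CPM in Lepr+ HSC, so these groups overlapped, with replicate 3 high in both and replicate 5 high in Lepr+ cells alone. Lepr- MPP had 1.78, 0.531, 1.6, 0 and 4.26 CPM, from 171 counts in all, and Lepr+ MPP had 3.75, 22.2, 23.2, 11 and 35.3 CPM, from 1867 counts. HSC stood above MPP among Lepr- cells by 5.4 ± 0.79 (adjusted p = 0.000503). Among Lepr+ cells the difference was 2.1 ± 0.67, which did not pass (adjusted p = 0.246, and 0.071 with the block).

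The chains of the fibrinogen receptor came next. Itga2b (chromosome 11 from 102453297 to 102470122, minus strand) had 364, 749, 1032, 579.9 and 799.5 CPM in Lepr- HSC. It had 120.5, 356, 444, 231 and 210.2 CPM in Lepr+ HSC, lower in 5 of 5 pairs, with Lepr+ replicate 3 above the lowest Lepr- library. The MPP groups had 59.3, 118, 101, 77.7 and 96 CPM (Lepr-) and 37.7, 78.4, 77.9, 164 and 78.7 CPM (Lepr+). Among Lepr- cells HSC stood 2.96 ± 0.39 higher (adjusted p = 0.000176). Among Lepr+ cells the ranges of HSC and MPP overlapped, since Lepr+ MPP replicate 4 exceeded Lepr+ HSC replicate 1, and the difference was 1.64 ± 0.37 (adjusted p = 0.0551, and 0.00374 with the block).

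Itgb3 (chromosome 11 from 104608000 to 104670476, plus strand) had 73.7, 209.7, 206, 132 and 106 CPM in Lepr- HSC. In Lepr+ HSC it had 26.4, 124, 119, 74.4 and 51.9 CPM, again lower in 5 of 5 pairs with overlapping ranges. In both HSC groups replicates 2 and 3 were the highest and replicate 1 the lowest. Lepr- MPP had 20.6, 19.9, 18.1, 42.3 and 8.22 CPM, and Lepr+ MPP had 18, 33.1, 18.6, 26.4 and 31.2 CPM. HSC exceeded MPP among Lepr- cells by 2.74 ± 0.44 (adjusted p = 0.00112). Among Lepr+ cells the difference was 1.64 ± 0.43, which did not pass (adjusted p = 0.114, and 0.0547 with the block).

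Of the receptor for von Willebrand factor, Gp5 (chromosome 16 from 30307685 to 30310779, minus strand) had 119, 368, 251, 469.9 and 268 CPM in Lepr- HSC. It had 38.2, 182, 113, 209.8 and 184 CPM in Lepr+ HSC, lower in 5 of 5 pairs. The MPP groups had 15.1, 45, 35.2, 55.9 and 49.6 CPM (Lepr-) and 19.1, 38.8, 15.8, 50.4 and 18.4 CPM (Lepr+). Replicate 4 was the highest in each of the 4 groups, and replicate 1 the lowest in all but Lepr+ MPP. The difference between HSC and MPP was 2.88 ± 0.48 among Lepr- cells (adjusted p = 0.00138). It was 2.35 ± 0.47 among Lepr+ cells (adjusted p = 0.0235), whose ranges overlapped because Lepr+ HSC replicate 1 was below Lepr+ MPP replicates 2 and 4.

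Gp9, a small subunit of the same complex (chromosome 6 from 87778072 to 87779768, plus strand), had 107, 146, 94.8, 154 and 157 CPM in Lepr- HSC. The Lepr+ libraries of HSC had 65.6, 113, 83.6, 85.8 and 182 CPM, a range that took in the whole of the Lepr- range. Lepr- MPP had 26.8, 31.2, 27.7, 22.8 and 37 CPM, and Lepr+ MPP had 20.6, 39.7, 17.5, 36.5 and 76.8 CPM. Replicate 5 was the highest in each of the 4 groups, and in Lepr+ MPP it exceeded the lowest library of Lepr+ HSC. The difference between HSC and MPP was 2.18 ± 0.35 among Lepr- cells (adjusted p = 0.0011), and 1.48 ± 0.34 among Lepr+ cells (adjusted p = 0.063, and 0.00181 with the block). Of the remaining chains of this receptor, Gp1ba ranged over 21.9 to 61.7 CPM (Lepr- HSC) and 6.83 to 14.3 CPM (Lepr- MPP), a difference of 2.16 ± 0.84 (adjusted p = 0.245). Gp1bb failed the filter on low counts, with 56 and 18 counts over all Lepr- and Lepr+ HSC libraries and 3 and 0 over all Lepr- and Lepr+ MPP libraries.

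Tubb1 (chromosome 2 from 174450695 to 174457882, plus strand) had 2.33, 6.43, 8.18, 9.6 and 4.86 CPM in Lepr- HSC. In Lepr+ HSC it had 4.39, 5.65, 57.6, 43.3 and 110.3 CPM, so replicates 3, 4 and 5 stood far above every Lepr- library and replicates 1 and 2 lay inside the Lepr- range. In Lepr- MPP it had 0.227, 1.86, 2.17, 0.279 and 1.66 CPM, with 6 and 4 counts in replicates 1 and 4, and the Lepr+ MPP libraries had 1.01, 1.2, 2.39, 0 and 0 CPM. The difference between Lepr+ HSC and Lepr+ MPP was 5.49 ± 1.11 (adjusted p = 0.0256). That between Lepr- HSC and Lepr- MPP was 2.33 ± 0.97 (adjusted p = 0.3001, and 0.134 with the block), although those groups did not overlap. The call between the Lepr+ groups was lost without any 1 of Lepr+ HSC replicates 3, 4 and 5 and Lepr+ MPP replicates 1 and 2.

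Cavin2 (chromosome 1 from 51289126 to 51302960, plus strand) had 77, 55.9, 200.4, 78 and 63.3 CPM in Lepr- HSC, where replicate 3 stood apart. Lepr+ HSC had 35.8, 54.1, 91.8, 68.1 and 20.7 CPM, lower in 5 of 5 pairs, with replicate 3 again the highest. Lepr- MPP had 0.568, 0.455, 6.04, 0.0697 and 1.8 CPM, with 15, 12 and 1 counts in replicates 1, 2 and 4, and Lepr+ MPP had 1.83, 7.05, 4.88, 5.27 and 9.45 CPM. Every HSC library exceeded every MPP library. The difference between HSC and MPP was 5.7 ± 0.84 among Lepr- cells (adjusted p = 0.000503), and 3.26 ± 0.74 among Lepr+ cells (adjusted p = 0.0569, and 0.0156 with the block).

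The file names carry dates in June for replicates 1, 3 and 5 and in July for replicates 2 and 4, in all 4 groups alike. Within each month the 8 genes called between Lepr- HSC and Lepr- MPP were higher in HSC. Every Lepr- HSC library exceeded every Lepr- MPP library for these 8, so their sign within a month was fixed and adds no support. Pf4 differed by 6.03 in June and 5.7 in July, Vwf by 5.1 and 5.17, Itga2b by 3.1 and 2.73, Clu by 4.82 and 7.72, and Gp9 by 1.97 and 2.44. With 3 and 2 libraries per group, 5 of these passed in June (0.457% of all genes called) and 0 in July, where 0 of all 15464 genes tested were called. Selp gave 0.6 in June and -0.13 in July.

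Within HSC, most of these genes had lower values in Lepr+ than in Lepr- cells. Pf4, Itga2b, Gp5, Itgb3, Vwf and Cavin2 were lower in 5 of 5 pairs of the same replicate number and Gp9 and Selp in 4 of 5, while Tubb1 was higher in 4 of 5 and Clu in 2 of 5. The share of all genes with 5 of 5 pairs one way was not computed, so pair counts here are description only. None of the 10 passed edgeR's test over all genes (0.103% of all genes called), 5 had an unadjusted p under 0.05, as 1149 of the 16509 genes tested had, and the median of the 10 was -0.75 against -0.00 over all genes. With the replicate number as a block 3 were called, each lower in Lepr+ HSC (1.02% of all genes called). Pf4 had means of 1857 ± 970.1 CPM in Lepr- and 467 ± 214 CPM in Lepr+ HSC (SD, n = 5), a difference of -1.99 ± 0.58 on the log2 scale (adjusted p = 0.25), or -1.95 with the block (adjusted p = 0.00366). Itga2b had means of 705 ± 249.9 and 272 ± 127 CPM (-1.37 ± 0.37, adjusted p = 0.191, and -1.42 with an adjusted p of 0.0113 with the block). Gp5 had 295 ± 132 and 146 ± 69.9 CPM (-1.02 ± 0.45, adjusted p = 0.644, and -1.07 with an adjusted p of 0.0389 with the block). DESeq2 called 2 of the 10, Pf4 and Itga2b (1.1% of all genes called), and limma voom 1, Pf4 (0.109%).

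In each month Pf4, Itga2b and Gp5, the 3 called with the block, had lower values in Lepr+ HSC. The log2 differences were -2.17 in June and -1.69 in July for Pf4, -1.49 and -1.15 for Itga2b, and -0.92 and -1.06 for Gp5. Each was lower in all 5 pairs of these same libraries, so the sign within a month was fixed and adds no support. The calls with the block depended on which pool was left out. On leaving out 1 replicate number, Pf4 was called without number 1, 2, 4 or 5 but not without number 3 (adjusted p = 0.05004), Itga2b without number 2 or 4, and Gp5 without number 5. Vwf differed by -0.7 ± 0.47 (adjusted p = 0.947), Itgb3 by -0.88 ± 0.42 (adjusted p = 0.714) and Cavin2 by -0.81 ± 0.68 (adjusted p = 0.9998). Gp9 (-0.31 ± 0.34), Clu (0.26 ± 0.64) and Selp (-0.14 ± 0.31) differed by less than their SE.

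Markers of the sorted cells and of other cells were read in the same libraries. Of 9 sorted-cell markers 8 had higher values in Lepr+ HSC and 1 lower, and 2 were called, each higher (4 with the block). Over all genes 0.103% were called, and 1.02% with the block. Among the 9, Procr had means of 30.9 and 99.2 CPM and Ly6a of 65.2 and 164 CPM in Lepr- and Lepr+ HSC. Of 15 measured red cell markers 13 had lower values in Lepr+ HSC, with a median of -1.64. An unadjusted p under 0.05 was found for 2, and 0 were called with or without the block. Sums of 16 such markers overlapped, at 1909 to 3047 CPM (Lepr-) and 1794 to 2752 CPM (Lepr+), with Slc4a1 at 0 in Lepr+ HSC. The 18 endothelial markers summed to 611 to 779 CPM (Lepr-) and 792 to 1199 CPM (Lepr+), with Sox17 at 0 in Lepr- HSC, and 16 of 17 measured had higher values in Lepr+ HSC (median 1.11, 5 at an unadjusted p under 0.05, 0 called, and 2 called higher with the block). The 20 stromal markers summed to 864 to 1486 and 841 to 1350 CPM, with Ebf3 at 0 in Lepr- HSC. Most of the Lepr- sums came from list members other than Cxcl12, Adipoq and Col1a1, whose medians there were 0.11, 0 and 0.472 CPM. Although the Lepr- and Lepr+ sums overlapped, 16 of the 20 had higher values in Lepr+ HSC (median 1.13, 8 at an unadjusted p under 0.05, 0 called with or without the block), among them Cxcl12 with 0 to 8.16 CPM (Lepr-) and 0.303 to 64.5 CPM (Lepr+). None of the 10 genes is in these lists, which does not show that other cells lack their RNA. The part of other cells, or of the mix of sorted cells, in the differences of the 10 genes, Pf4, Itga2b and Gp5 among them, was not tested.

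**Figure D3:**
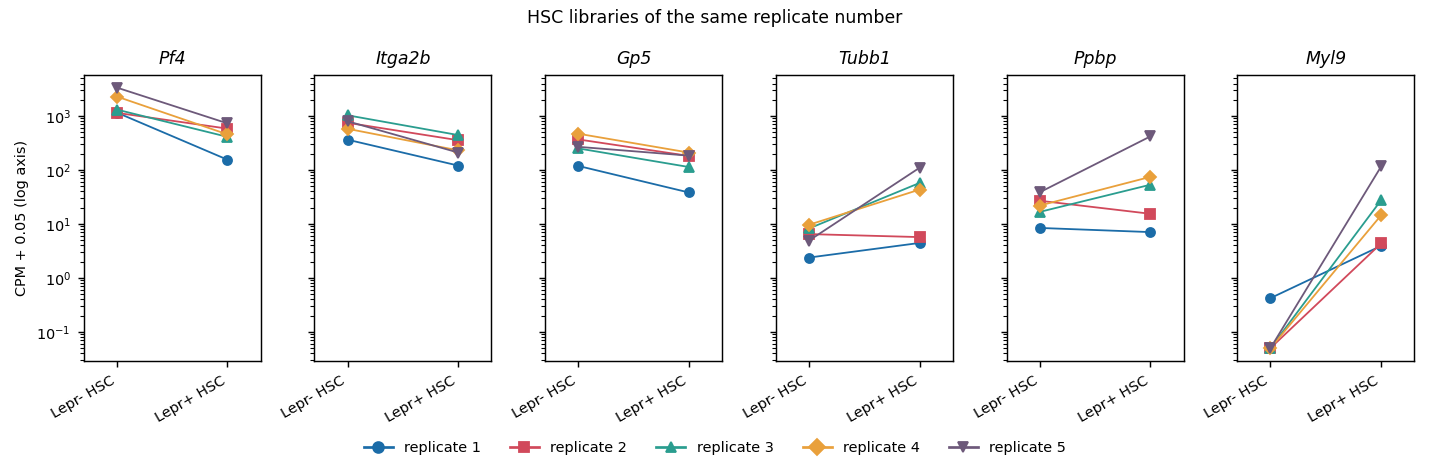
CPM after adding 0.05, on a log axis, in Lepr- and Lepr+ HSC libraries of the same replicate number, joined by lines. All 5 lines fall for Pf4, Itga2b and Gp5, 4 of 5 rise for Tubb1, 3 of 5 rise for Ppbp, and all 5 rise for Myl9.

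Tubb1 ran against most of the 10 in HSC. Ppbp, another chemokine of platelet granules, neighbours Pf4 within 20 kilobases on chromosome 5, and Myl9 is a myosin light chain of platelets and of smooth muscle. Ppbp had 8.38, 26.8, 16.6, 21.9 and 38.6 CPM in Lepr- HSC. The Lepr+ libraries had 7.003, 15.4, 53.3, 74.5 and 419.6 CPM, so it was higher in replicates 3, 4 and 5 and lower in the others. Myl9 had 11 counts over all of Lepr- HSC, all in replicate 1, whereas the Lepr+ libraries had 3.88, 4.32, 27.6, 14.5 and 116 CPM. Both were highest in Lepr+ replicate 5, as were Tubb1, Pf4, Gp9, Clu and Selp, although Pf4 in that library stood below its Lepr- pair. Tubb1 differed by 2.82 ± 0.98 (adjusted p = 0.416), Ppbp by 2.34 ± 1.00 (adjusted p = 0.62) and Myl9 by 8.41 ± 1.79 (adjusted p = 0.0695, and 0.0387 with the block). Without Lepr+ HSC replicate 5, one of the libraries least like its group, the difference of Tubb1 was 2.15, and in June and July alone it was 3.5 and 1.65.

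Within MPP, Clu was higher in Lepr+ cells, and no other of the 10 genes was called (0.2% of all genes called). Clu had means of 1.63 ± 1.64 CPM in Lepr- and 19.1 ± 12.2 CPM in Lepr+ MPP (SD, n = 5), higher in 5 of 5 pairs, a difference of 3.56 ± 0.73 (adjusted p = 0.0463, and 0.0354 with the block, where 0.103% of all genes were called). The ranges overlapped, since Lepr- replicate 5 exceeded Lepr+ replicate 1, and for 0 of the 10 were the MPP groups apart (1.64% of all genes). The call was lost on leaving out any 1 of 18 of the 20 libraries, the exceptions being Lepr- MPP replicate 5 and Lepr+ MPP replicate 1 (adjusted p from 0.05051 to 0.172 where lost). HSC libraries enter it through the shared estimate of spread. The size was 3.03 in June and 5.8 in July. Cavin2 stood 1.63 ± 0.72 higher (adjusted p = 0.945, higher in 4 of 5 pairs) and Vwf 0.65 ± 0.47 (adjusted p = 1, 4 of 5 pairs). The other 7 genes differed by -0.5 to 0.39, and the median of the 10 was 0.21 against 0.01 over all genes.

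Markers of other cells were higher beside Clu in Lepr+ MPP, where 0.2% of all genes were called by Lepr staining (0.103% with the block). The 18 endothelial markers summed to 486 to 793 CPM (Lepr-) and 830.4 to 1460 CPM (Lepr+), and 5 of 17 measured were called, each higher (2 with the block). Cdh5, Esm1 and Fabp4 reached at most 0.0758, 0.0315 and 2.01 CPM in Lepr- MPP and 36.1, 51.3 and 280.5 CPM in Lepr+ MPP. Most of the endothelial sums thus came from other list members. The 20 stromal markers summed to 255 to 482 and 422 to 4238 CPM, and 8 of 20 were called, each higher (3 with the block). Sox17, Adipoq, Lum, Pdgfra and Ebf3 were at 0 in all Lepr- MPP libraries, and 0 genes of either list were at 0 throughout Lepr+ MPP. The 8 macrophage markers summed to 38.8 to 89.2 and 57.2 to 272 CPM. Among the Lepr+ MPP libraries Clu and the endothelial and stromal sums were highest in replicate 5 and lowest in replicate 1. The part of such cells in the levels of Clu, Cavin2 and Vwf was not tested.

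**Figure D4:**
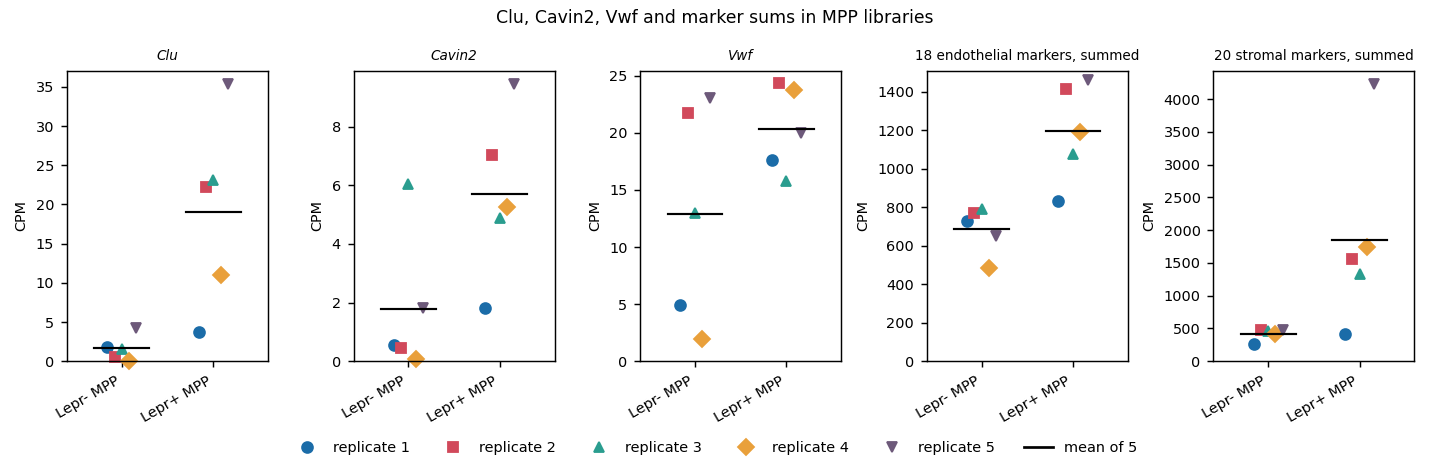
CPM of Clu, Cavin2 and Vwf and the summed CPM of 18 endothelial and 20 stromal markers in the 5 Lepr- and 5 Lepr+ MPP libraries, with lines at the means. Within Lepr+ MPP, Clu and both sums are highest in replicate 5 and lowest in replicate 1, where Clu had 3.75 CPM.

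The difference between the Lepr effect in HSC and that in MPP was tested as an interaction, and edgeR called 0 of the 10 genes (0% of all genes called, with or without the block). An unadjusted p under 0.05 was found for 5 of the 10 and for 529 of the 16509 genes tested. DESeq2 called 0 of the 10 (0.115% of all genes called) and limma voom 0 (0%). The fitted values were -3.3 ± 0.95 for Clu, -2.44 ± 0.99 for Cavin2, -1.95 ± 0.8 for Pf4, -1.32 ± 0.52 for Itga2b and 3.17 ± 1.34 for Tubb1, and the median of the 10 was -1.21 against -0.02 over all genes. Clu had a Lepr effect of 0.26 in HSC and of 3.56 in MPP. For Pf4 these were -1.99 and -0.04, and for Itga2b -1.37 and -0.05. The interaction is built from the same libraries as the comparisons by Lepr staining, so its values are not independent of them.

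The platelet pathway beyond these 10 was read from 70 further genes, of which 67 passed the filter on low counts (Gp1bb, Gp6 and Adra2a did not). Between Lepr- HSC and Lepr- MPP 20 were higher and 0 lower (26 and 4 with the block), with a median of 0.53. Over all genes 2.73% were called in either direction (7.5% with the block), and the median was 0.01. Of 7 measured receptors for platelet agonists 4 were called. P2ry1, a receptor for ADP, had 34.2 to 80.9 CPM in HSC against 2.01 to 4.88 CPM in MPP (4.06 ± 0.52, adjusted p = 0.000154), and F2rl2, a thrombin receptor, differed by 3.8 ± 0.61 (adjusted p = 0.00106). Of 16 genes of signalling, cytoskeleton and granule making 6 were called, among them the alpha tubulin Tuba8, with 99.2 to 296 against 8.97 to 22.7 CPM (3.76 ± 0.5, adjusted p = 0.000198). Granule contents had 3 of 12 called and integrins and adhesion receptors 1 of 9, whereas Ppbp did not pass (2.78 ± 1.03, adjusted p = 0.218, and 0.0205 with the block).

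Of the 15 transcription factors 6 were higher in Lepr- HSC than in Lepr- MPP and 0 lower (2.73% of all genes called). Zfpm1, the GATA1 cofactor FOG-1, differed by 1.37 ± 0.23 (adjusted p = 0.00155). The ETS factor Fli1 differed by 1.00 ± 0.21 (adjusted p = 0.0104) and the repressor Gfi1b by 0.98 ± 0.22 (adjusted p = 0.0174). Runx1 (0.5, adjusted p = 0.0756, and 0.0184 with the block), Gata1 (1.61, adjusted p = 0.21) and Nfe2 (0.07, adjusted p = 0.972) did not pass. Between Lepr+ HSC and Lepr+ MPP 5 of the 67 were called, each higher in HSC (0.466% of all genes called). With the block 15 were called, also each higher (1.77% of all genes). The 5 called without the block included Tuba8 (2.89 ± 0.48, adjusted p = 0.00907), Gata1 (3.25 ± 0.63, adjusted p = 0.0217), Gata2 (0.77 ± 0.15, adjusted p = 0.022) and F2rl2 (2.97 ± 0.59, adjusted p = 0.0235).

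Between Lepr+ and Lepr- HSC edgeR called 0 of the 67 (0.103% of all genes called), and 18 had an unadjusted p under 0.05 (1149 of all 16509 genes). Of the fitted values 42 were negative and 25 positive, with a median of -0.11. Positive were 7 of 12 granule contents and 2 of 2 measured receptors for collagen and podoplanin. Negative were 12 of 16 genes of signalling, cytoskeleton and granule making and 11 of 15 transcription factors. Gp6, which failed the filter, had 0 counts in Lepr- HSC and 873 in Lepr+ HSC (0 to 53.3 CPM, median 2.28). With the block 7 of the 67 were lower in Lepr+ HSC and 1, Myl9, was higher (1.02% of all genes called). Tgfb1, a growth factor that platelets store, had 38.8 to 60.2 CPM (Lepr-) and 12.7 to 24.7 CPM (Lepr+), with no overlap (-1.4 ± 0.33, adjusted p = 0.109, and 0.00468 with the block). Rasgrp2, an activator of Rap1 in platelets, differed by -0.67 ± 0.16 (adjusted p = 0.13, and 0.0141 with the block) and Gfi1b by -0.88 ± 0.22 (adjusted p = 0.144, and 0.0317 with the block). Fli1 (-0.39), Runx1 (-0.19), Zfpm1 (-0.62), Gata1 (-1.5), Nfe2 (0.18) and Gp1ba (-1.16) passed in neither fit.

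Between Lepr+ and Lepr- MPP 2 of the 67 were called, in opposite directions (0.2% of all genes called), and neither with the block (0.103%). Gata1, a zinc finger factor that both megakaryocytes and red cells need, stood at 17.4, 42.6, 55.3, 114 and 73.4 CPM in Lepr- MPP. The Lepr+ libraries had 6.33, 2.77, 9.63, 0.769 and 14.8 CPM, each below the lowest Lepr- library and the least, in replicate 4, from 7 counts (-3.14 ± 0.63, adjusted p = 0.0433, and 0.0612 with the block). Of 15 measured red cell markers 14 had lower values in Lepr+ MPP, with a median of -1.45, and 0 were called. An unadjusted p under 0.05 was found for 5 of them and for 728 of all 16509 genes. The red cell sums were 1725 to 3307 CPM (Lepr-) and 1646 to 2433 CPM (Lepr+). The part of red cells in the level of Gata1 was not tested. Sparc, a matrix protein of platelet granules and of stromal and vessel cells, had 1.44 to 11.8 CPM (Lepr-) and 50.7 to 937 CPM (Lepr+; 6.2 ± 1.27, adjusted p = 0.0463, and 0.085 with the block), and like Clu it was highest in Lepr+ replicate 5. Serpine2, a protease inhibitor, had means of 8.21 ± 5.74 and 40.2 ± 19 CPM (2.29 ± 0.7, adjusted p = 0.327). It also had the smallest interaction p of the 67, with -3.85 ± 0.98 (adjusted p = 0.886). Myl9 had 2 counts over all of Lepr- MPP and 0 to 16.6 CPM in Lepr+ MPP (adjusted p = 0.136).

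Per kilobase of exon, Pf4 had the highest mean level of the 10 in HSC. In Lepr- HSC it stood at 2576 CPM per kilobase, followed by Gp9 at 149.5, Gp5 at 134 and Itga2b at 129, neighbours that differ by less than the SD of Gp5, then Cavin2 at 31.1, Vwf at 28.3, Itgb3 at 24.7, Clu at 19.9, Selp at 9.96 and Tubb1 at 4.47. In Lepr+ HSC the values were 648 for Pf4, 120.3 for Gp9, 66.2 for Gp5, 49.9 for Itga2b and 31.5 for Tubb1. In Lepr- and Lepr+ MPP Pf4 had 43 and 42 CPM per kilobase and Gp9 33 and 43.4. The share of Pf4 in the counts of the 10 genes was 32.6% to 63.9% in Lepr- HSC and 21.8% to 38.7% in Lepr+ HSC. In MPP it was 4.05% to 21.3% (Lepr-) and 5.12% to 19.3% (Lepr+).

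Across the 20 libraries, which share pools and groups, the highest Pearson correlations of log2 CPM between the 10 genes were 0.941 for Vwf and Cavin2, 0.925 for Pf4 and Gp9, 0.915 for Clu and Cavin2 and 0.909 for Itga2b and Gp5. After the group means were taken out these pairs had 0.639, 0.636, 0.678 and 0.593. Pf4 and Vwf went from 0.88 to 0.0105. Selp had a median of 0.206 with the other 9 genes and Tubb1 of 0.587, against 0.643 to 0.854 for the rest.

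**Figure D5:**
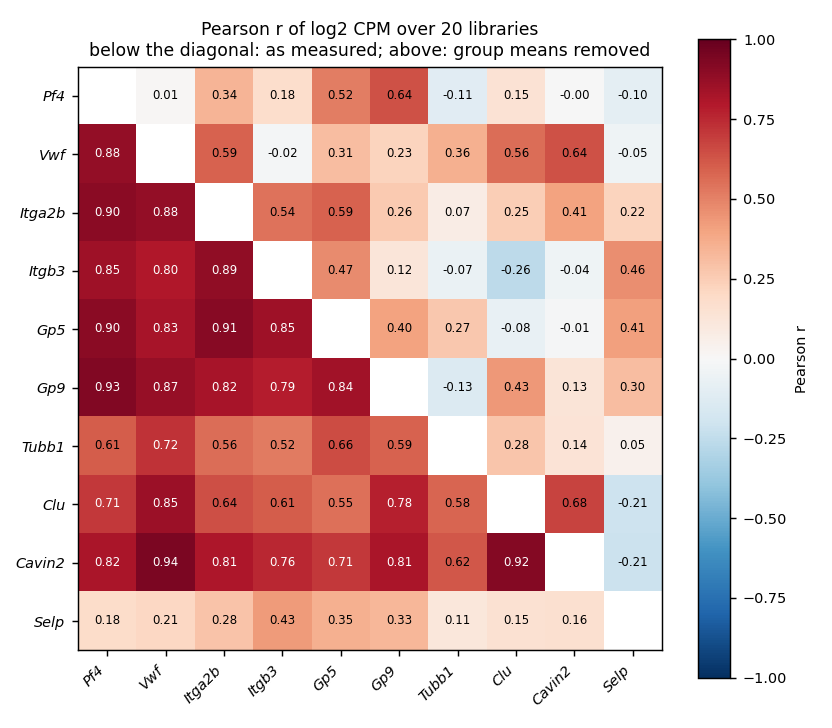
Pearson r of log2 CPM for each pair of the 10 genes over 20 libraries, as measured (below the diagonal) and after group means were removed (above). Selp has r from 0.113 to 0.429 with the others as measured, and Clu and Cavin2 keep 0.678 after group means are removed.

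Among 10046 genes with a mean of at least 5 CPM, the 2 most like each of the 10 by Pearson's r of log2 CPM over the 20 libraries were named. Pf4 went with Cdk1 (0.967) and Tyms (0.955), which act in mitosis and in the making of DNA, and Gp5 with Rap1b (0.948) and Rfc5 (0.946). The integrin chain Itga2b went with Tuba8 (0.959) and Pdcd4 (0.925) and its partner Itgb3 with Exoc3l2 (0.908) and Dusp3 (0.895). Vwf went with Ache (0.943) and Tgfbr3 (0.93), and Tgfbr3, a coreceptor for TGF-beta, was also the gene most like Clu (0.922) and Cavin2 (0.934). Next came Sh3rf1 for Clu (0.908) and Lhfp for Cavin2 (0.916). Gp9 went with S100a1 (0.932) and Rab11a (0.917). The likeness was lower for Tubb1, with Ctnnal1 (0.829) and Tie1 (0.809), Tie1 being an endothelial marker, and for Selp, with Gmpr (0.753) and Clic1 (0.752). With group means taken out the r of these 20 pairs was 0.616 to 0.866, and the named genes ranked from 2 to 338 among the 10046, so that none remained the most like its member. Ache ranked 2 for Vwf and Cdk1 15 for Pf4, while Tyms ranked 338 for Pf4, Rfc5 263 for Gp5, Ctnnal1 140 for Tubb1 and Dusp3 121 for Itgb3. The likeness thus includes the differences between groups.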

How the data were processed

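RNA of 20 sorted samples was sequenced without strand, and the deposited values are raw counts per gene that the authors made before deposit. Per the submitters' processing notes reads were handled with STAR 2.7.1a, HTSeq 0.11.2, cutadapt 2.1, DESeq2 and FastQC 0.11.8, with GRCm38 as the build, and the counting mode is not given in the sources used here. Reads of near-identical or overlapping genes can be lost or split by such counting. Gene names and lengths came from GENCODE M21, which held 55480 of the 55573 identifiers. Rows that name no gene (21.4% to 38.7% of read pairs in no gene) were left out.

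Genes kept by filterByExpr (minimum count 10, minimum total 15, 16509 genes) were scaled by TMM and fitted over all 20 libraries with edgeR 4.0.16 (robust quasi-likelihood, group only, R 4.3.3), with two-sided p adjusted by Benjamini-Hochberg at 0.05. The biological coefficient of variation was 0.747. Log2 CPM used a prior count of 2. Alternatives were a replicate block, other scalings and filters, DESeq2 1.42.0, voom of limma 3.58.1, the 2 groups alone, and fits without libraries, replicate numbers or months. Replicate numbers mark pools that all 4 groups share, per the series' design text. In 30 library pairs sharing a number, deviations from group means had a median r of 0.264, against -0.0858 for 120 other pairs, and 23 of the 30 were over 0.1, so with the block the comparison is within pools. The text names all 10 genes, per comparison up to 4 pathway genes with the smallest p, 10 set pathway genes, and 2 genes most like each member. Some genes that this rule names are not reported here. The genes and lists were chosen with earlier results of these data known. CPM from few counts carry counting error besides the spread between pools.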

Additional observations from a re-analysis of the deposited data

Results flagged for a closer look

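In Lepr- HSC, Cavin2 had 200.4 CPM in replicate 3, far above the next library at 78 CPM, and Selp had 32.52 CPM in replicate 1, below the other libraries at 44.8 CPM or more. Both gaps passed Dixon's 95% limit for 5 libraries (0.71). These were 2 of 40 sets tested, and chance flags about 1 in 20, or 2.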

How the results depend on the processing

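Of 2040 values of single genes under 41 alternatives, 51 had the other sign, in 11 results whose reported size was at most 0.53, 85 lost a call and 49 gained one. The cause of these changes was not tested. Between Lepr+ and Lepr- HSC the count of the 10 genes called was 0, but 3 with the replicate block, 2 with DESeq2 and 1 with limma voom. Between Lepr+ and Lepr- MPP it was 1, but 0 with voom (0.357% of all genes called) and with the 2 groups alone (0.106%). It was also 0 there without the 3 libraries least like their groups and in June or July alone (0% of all genes in each). Between Lepr- HSC and Lepr- MPP it was 8, but 5 in June (0.457%) and 0 in July (0%). Between Lepr+ HSC and Lepr+ MPP it was 4, but 7 with the block (1.77%) and 8 with DESeq2 (2.04%). It was 1 there with the 2 groups alone (0.0272%) and 0 in either month (0%). Fits within a month hold 3 or 2 libraries per group.

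Signs turned as follows (log2). By Lepr staining in MPP, Pf4 had 0.00693 with the replicate block, 0.036 with upper quartile factors and 0.16 in June; Itga2b had 0.038 with upper quartile factors and 0.31 in July; Gp9 had -0.033 with voom and -0.16 without the 3 libraries; Tubb1 had 0.30 without them, and Itgb3 -0.065 in July. By Lepr staining in HSC, Clu had -0.082 without the 3 libraries and -0.29 in July. Selp had 0.27 in June between the Lepr+ groups and -0.13 in July between the Lepr- groups. The interaction of Gp5 was 0.0016 in June.

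On leaving out 1 library or replicate number, with the block or without it, 0 to 2 of the 10 genes were called by Lepr staining in HSC, 0 to 1 in MPP, and 1 to 7 between Lepr+ HSC and Lepr+ MPP. In HSC the effect of Lepr staining ran from -0.17 to 0.45 for Clu and from -0.27 to 0.029 for Selp. In MPP it ran from -0.67 to 0.38 for Pf4, -0.47 to 0.14 for Itga2b, -0.10 to 0.60 for Itgb3, -0.029 to 0.57 for Gp9, -1.02 to 0.38 for Tubb1 and -0.062 to 0.45 for Selp. Between the Lepr+ groups Selp ran from -0.25 to 0.195.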
